A study of Mus musculus with 18 samples.

Results

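Chemokine ligands are the small secreted proteins that set up gradients for migrating leukocytes. Their genes were taken from the expression table of bone marrow-derived macrophages (BMDMs) as every row whose symbol begins with Ccl, Cxcl, Cx3cl or Xcl followed by a number. This gave 38 genes of the 25926 listed. Of these, 22 reached a mean of 1 FPKM (fragments per kilobase and library size, a level scaled for gene length and sample total) in at least 1 group and are described by name below. A further 8 were detected at lower levels, and 8 were listed at 0 in every sample.

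The BMDMs were primary cells of C57BL/6 mice, grown from marrow with 50 ng/mL M-CSF over 7 days, and the labels give neither age nor sex of the animals. They were separated by a 0.4 μm Transwell membrane from a lower layer of primary renal tubular epithelial cells (TECs) of wild-type mice. The NC group held 6 samples in which the BMDMs received PBS and the TECs no crystals. The COM group held 6 samples in which the BMDMs received PBS and the TECs 100 μg/mL calcium oxalate monohydrate (COM), a crystal found in kidney stones, for 24 h. The COM+Met group held 6 samples in which the TECs received COM in the same way and the BMDMs 5 mM Met for 24 h, an abbreviation that the labels do not spell out. TECs were present in all 3 groups, and there were neither BMDMs cultured alone nor NC samples with Met. Whether replicates of a group were separate mice or cultures is not stated in the labels, so p-values measure the spread between samples, which may be technical.

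Chemokines bind G protein-coupled receptors on leukocytes, and the arrangement of their first cysteines divides them into the CC, CXC, CX3C and C families. Macrophages are a major source of them in inflamed tissue, where NF-kappa B and interferon-activated factors switch on different sets of ligand genes. Ligands of CXCR2 attract neutrophils, ligands of CXCR3 attract activated T cells and NK cells, ligands of CCR2 attract monocytes, the MIP family and RANTES attract monocytes and T cells, and ligands of CCR4 attract Th2 and regulatory T cells.

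Before the results, several samples have to be named, since they stood apart in many ligands. All 8 macrophage markers examined were present in every group, with summed levels of 10601 to 17050 FPKM over the 18 samples, most of it Lyz2. Other markers changed, with Adgre1 at means of 112, 577 and 586 FPKM and Itgam at 298, 283 and 152 FPKM in NC, COM and COM+Met. By the limma criteria given below, 3 of the 8 were called higher and 0 lower in COM against NC (5.99% and 11.7% of all genes). The counts were the same in COM+Met against NC (5.66% and 13.6%). Within COM, samples 1 to 3 and samples 4 to 6 carried different sets of ligands, and the lowest correlation between COM samples over 10751 genes was 0.888, against 0.938 in NC and 0.989 in COM+Met. NC-5 and NC-6 were lower than the other NC samples in most ligands. No label gives a batch or a date, so what separates these samples was not tested. Where leaving them out changed a call or moved a reported change strongly, the value without them is mostly given beside it. Where none is given, the change may still have moved. Over all genes tested, the median change on the log2 scale was −0.27 in COM against NC, 0.0033 in COM+Met against COM and −0.26 in COM+Met against NC, and ligand changes are to be read relative to it.

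The summed level of the 38 ligand genes was 4049 ± 437 FPKM (SD, n = 6) in NC, 8894 ± 3906 FPKM in COM and 10137 ± 316 FPKM in COM+Met. This was 0.958%, 2.08% and 2.33% of the FPKM of all genes, respectively. The main component changed as well. Ccl6, a ligand of CCR1, made up 80.6% of the sum in NC, whereas Ccl5 (RANTES), a ligand of CCR1 and CCR3 among others, made up 61.0% in COM and 79.5% in COM+Met. Without Ccl5 and Ccl6 the sum was 780 ± 556 FPKM in NC, 2480 ± 231 FPKM in COM and 1727 ± 215 FPKM in COM+Met. Since FPKM is scaled to the total of a sample, and the samples are bulk RNA, fewer producing cells and less RNA per cell cannot be told apart.

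**Figure D1:**
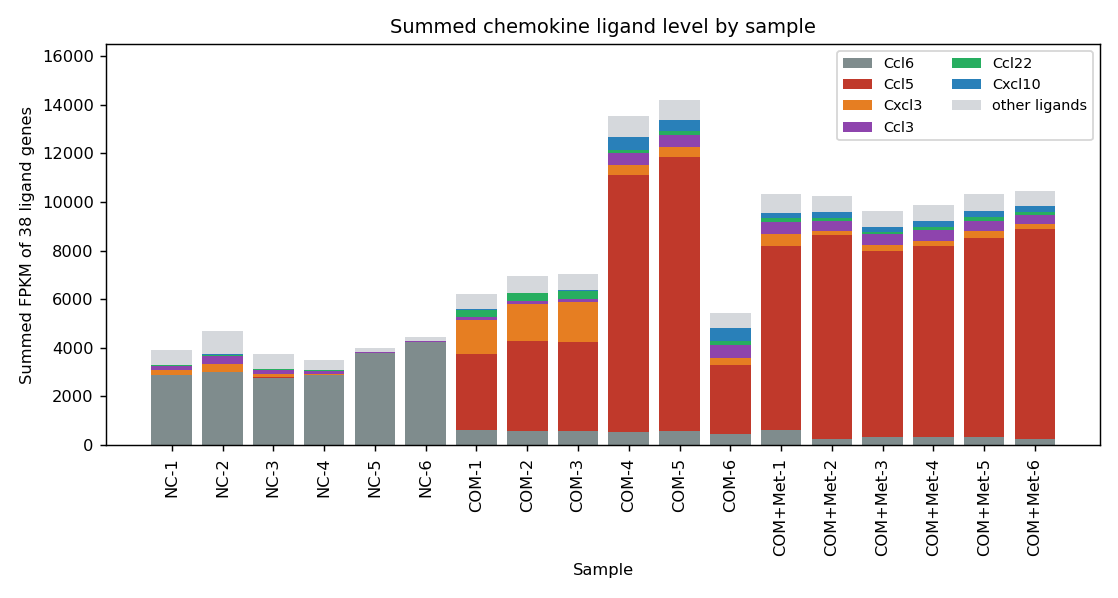
Summed level in FPKM (y axis) of the 38 chemokine ligand genes in each of the 18 samples (x axis), divided by colour into Ccl6, Ccl5, Cxcl3, Ccl3, Ccl22, Cxcl10 and all other ligands. Ccl6 fills most of each NC bar and Ccl5 at least 50.3% of each COM bar, and the COM bars range from 5423 to 14202 FPKM.

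By mean level, the NC samples were led by Ccl6 (3260 FPKM), Ccl9 (196 FPKM), Ccl3 (135 FPKM), Cxcl3 (122 FPKM) and Cxcl2 (114 FPKM). Below Ccl6 the ranges of neighbours in this order overlapped. In COM the order was Ccl5 (5866 FPKM), Cxcl3 (956 FPKM), Ccl6 (549 FPKM), Ccl3 (299 FPKM) and Cxcl10 (262 FPKM), of which only Ccl5 lay outside the range of its neighbour. COM+Met followed with Ccl5 (8056 FPKM), Ccl3 (428 FPKM), Ccl6 (354 FPKM), Cxcl16 (266 FPKM) and Cxcl3 (261 FPKM), again with overlap below Ccl5. Among all genes of the table, Ccl5 ranked 7 in COM and 4 in COM+Met, and Ccl6 ranked 11 in NC.

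The 3 comparisons were made with limma, and a call required a Benjamini-Hochberg adjusted p below 0.05 together with a 2-fold or larger change of FPKM + 1. In COM against NC, which addresses how BMDMs respond to crystal-exposed TECs, 7 of the 21 ligand genes tested were called higher, beside 5.99% of all genes, and 2 were called lower, beside 11.7%. Of those called higher, Ccl12 and Cxcl9 were near 0 in NC and reached the mean needed for the test only through COM. The groups did not overlap for 5 of the 21, beside 38.2% of all genes. In COM+Met against COM, which addresses the effect of Met under crystal exposure, 0 of 20 were called higher (background 0.608%) and 2 were called lower (1.61%). At an adjusted p below 0.05 without the fold threshold there were 6 of the 20, beside 1384 of all 10364 genes. The groups did not overlap for 2 of the 20 (11.2% of all genes). In COM+Met against NC, 11 of 18 were called higher (5.66%), 4 were called lower (13.6%), and 10 had groups that did not overlap (57.6%). Here Cxcl9, called higher, reached the mean needed for the test only through COM+Met, and Cxcl5, called lower, only through NC. The comparisons share samples, so their values are set side by side and not counted against each other.

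The median log2 fold change of the ligand genes tested was 1.20 in COM against NC, −0.0031 in COM+Met against COM and 1.34 in COM+Met against NC. Of the calls in COM against NC, 33.9% went up among all genes and 77.8% among ligands. With median-of-ratios size factors these shares were 50.7% and 87.5%, and with quantile normalisation 48.4% and 88.9%. For COM+Met against NC the share among all genes was 29.4%, or 45.2% and 45.6% under these scalings, and 73.3% among ligands, or 73.3% and 78.6%.

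**Figure D2:**
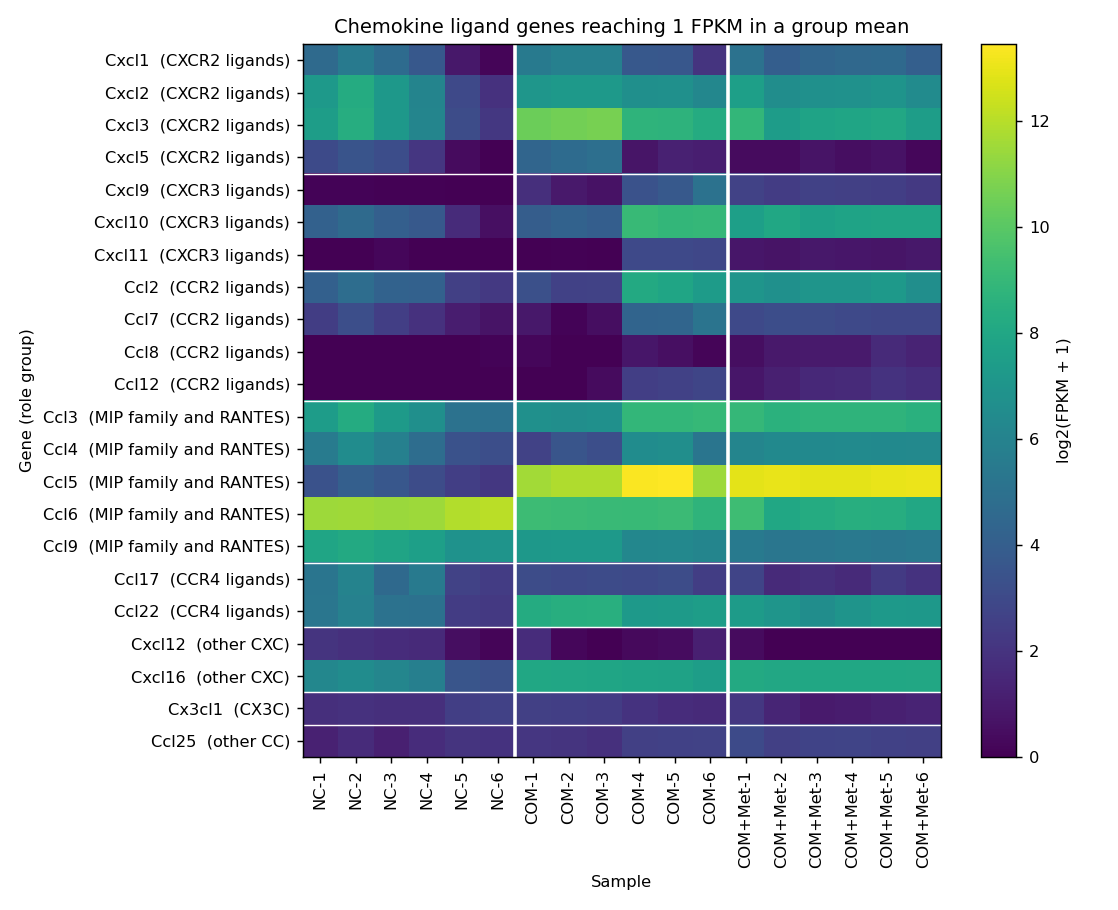
Levels as log2(FPKM + 1) (colour) of the 22 ligand genes that reached 1 FPKM in a group mean (rows, by role group) in the 18 samples (columns, in 3 blocks for NC, COM and COM+Met). Cxcl5 and Cxcl3 are brightest in COM-1 to COM-3, Cxcl10, Cxcl11 and Ccl2 in COM-4 to COM-6, and the COM+Met columns resemble one another.

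The CXCR2 ligands Cxcl1, Cxcl2, Cxcl3 and Cxcl5 are neutrophil chemoattractants whose genes lie in a cluster on chromosome 5 (GRCm38, chr5:90759360-90905938), with Cxcl15 between Cxcl3 and Cxcl1. Of these, Cxcl3 was called higher in COM than in NC and lower in COM+Met than in COM. Cxcl3 was at 3.57, 106 and 333 FPKM (lowest, median and highest) in NC. In COM it was at 1402, 1532 and 1654 FPKM in samples 1 to 3 and at 424, 411 and 313 FPKM in samples 4 to 6. In COM+Met it was at 173, 231 and 480 FPKM. NC-2 thus exceeded the lowest COM sample, and COM+Met-1 exceeded COM-4 to COM-6. The log2 fold change of Cxcl3 was 3.83 ± 0.99 (SE) in COM against NC (limma, adjusted p = 0.00604) and −1.63 ± 0.45 in COM+Met against COM (limma, adjusted p = 0.0302). Without COM-1 to COM-3 both calls were lost, at 2.83 and −0.63, while without COM-4 to COM-6 they were 4.83 and −2.63. The rise over NC was 2.29 without NC-5 and NC-6. The second call was also lost, with limma adjusted p of 0.0566 to 0.0715, when any sample among COM-1, COM-2, COM-3 and COM+Met-2 to COM+Met-6 was left out. With every sample kept it was lost in a shared fit of all 18 samples (limma, adjusted p = 0.203) and with no filter (limma, adjusted p = 0.0561). Against NC, COM+Met was higher by 2.20 (limma, adjusted p = 0.0483), a call lost when NC-4, NC-5, NC-6 or any COM+Met sample was left out (adjusted p 0.0606 to 0.104). Without NC-5 and NC-6 together it was 0.66 (adjusted p = 0.128), and with sample weights 0.73 (adjusted p = 0.144).

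Cxcl5 (ENA-78 or LIX) was also divided within COM. Its 6 COM values were 19.9, 25.5, 28.9, 0.674, 1.32 and 1.20 FPKM, whereas NC had a median of 5.21 FPKM (range 0 to 10.2) and COM+Met one of 0.377 FPKM (range 0.173 to 0.655). Every COM+Met sample lay below every COM sample, although COM-4 did so by little. The change in COM+Met against COM was −2.36 ± 0.73, which missed the call (limma, adjusted p = 0.0501). Only COM brought Cxcl5 to the mean needed for this fit, so only a fall could be called. With COM-4 to COM-6 left out the change was −4.18, and it passed the threshold when any of these 3 samples alone was left out (−2.78, −2.69 and −2.70). It also passed as TPM, with median-of-ratios size factors, with quantile normalisation and in a shared fit of all 18 samples. Against NC, the change of Cxcl5 in COM was 0.82 ± 0.90 (limma, adjusted p = 0.456), with 2.64 without COM-4 to COM-6, −0.9995 without COM-1 to COM-3 and −0.095 without NC-5 and NC-6. The change in COM+Met against NC was −1.54 ± 0.55 and called lower by limma, a call lost without NC-1, NC-2 or NC-3. The two-sided exact permutation test gave p = 0.0584. Only NC brought Cxcl5 to the mean needed for this fit, so again only a fall could be called. The change was −2.46 without NC-5 and NC-6.

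Cxcl1 (KC) was split in the same direction, with 45.2, 56.6 and 57.9 FPKM in COM-1 to COM-3 and 12.3, 11.7 and 3.07 FPKM in COM-4 to COM-6. NC ranged from 0.141 to 46.5 FPKM with a median of 18.4, and COM+Met from 15.1 to 32.6 FPKM with a median of 21.2. All groups overlapped. Its log2 fold change was 1.16 ± 0.98 in COM against NC (limma, adjusted p = 0.331), and −0.22 without NC-5 and NC-6. Without COM-4 to COM-6 it was 2.46, and without COM-1 to COM-3 −0.15. The change in COM+Met against NC was 1.16 ± 0.82, or −0.22 without NC-5 and NC-6. COM+Met against COM gave 0.00098 ± 0.58, a value that was −1.30 without COM-4 to COM-6 and 1.31 without COM-1 to COM-3.

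The division was smaller for Cxcl2 (MIP-2). It was at 135, 150 and 147 FPKM in COM-1 to COM-3, at 105, 107 and 75.1 FPKM in COM-4 to COM-6, at 2.82, 105 and 308 FPKM (lowest, median and highest) in NC, and at 89.0, 109 and 190 FPKM in COM+Met. The group means were 114 ± 115, 120 ± 29.3 and 120 ± 36.5 FPKM (SD, n = 6). No comparison passed the test, and the spread in NC came from NC-2 at the top and NC-5 and NC-6 at the bottom. On the log2 scale COM against NC was 1.26 ± 0.94 and COM+Met against NC 1.25 ± 0.95, and without NC-5 and NC-6 both were −0.33.

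Neutrophil markers also differed between these samples. The summed level of 10 markers was 407 to 606 FPKM in NC, 47.8 to 339 FPKM in COM and 32.3 to 53.2 FPKM in COM+Met, and 4 of the 10 reached 1 FPKM in every group mean. S100a8, a calgranulin abundant in neutrophils and also made by stimulated macrophages, was at 298, 276 and 301 FPKM in COM-1 to COM-3 and at 51.9, 56.4 and 28.4 FPKM in COM-4 to COM-6. Its level in NC was 189 to 324 FPKM. S100a9, its partner, was at 12.2 to 17.8 FPKM in COM-1 to COM-3 and 1.34 to 2.79 FPKM in COM-4 to COM-6, beside 114 to 259 FPKM in NC. Csf3r, the G-CSF receptor, went the other way within COM, at 9.21 to 10.4 and 13.9 to 16.7 FPKM, and Ly6g was listed at 0 in every COM sample. Of 6 neutrophil markers tested in COM against NC, 3 were called lower and 0 higher by limma, beside 11.7% and 5.99% of all genes. The part of such cells in the CXCR2 ligand values was not tested.

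The upstream sequences of Cxcl1, Cxcl2 and Cxcl3 are shown because these genes of the cluster hold the same stretch of letters while their levels diverged. They run 5′ to 3′ on the plus strand, from RefSeq on GRCm38.p6, and end before the gene start of RefSeq or of GENCODE, whichever comes first (for Cxcl1 and Cxcl2 that of GENCODE, which lies upstream of RefSeq's), at chr5:90891125-90891240, chr5:90903779-90903870 and chr5:90785981-90786100. Capitals mark matches to the NF-kappa B consensus.
Cxcl1: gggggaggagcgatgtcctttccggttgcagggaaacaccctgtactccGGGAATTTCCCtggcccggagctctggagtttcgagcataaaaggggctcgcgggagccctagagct
Cxcl2: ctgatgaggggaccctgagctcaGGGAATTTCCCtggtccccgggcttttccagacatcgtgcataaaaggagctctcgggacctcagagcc
Cxcl3: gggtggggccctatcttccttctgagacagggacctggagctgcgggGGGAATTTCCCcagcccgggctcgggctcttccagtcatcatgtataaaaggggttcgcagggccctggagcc
In all 3 genes the match is the palindrome-like stretch GGGAATTTCCC, which was read on both strands and begins 71, 97 and 73 bases before the RefSeq start of Cxcl1, Cxcl2 and Cxcl3. Promoters were found in RefSeq for 15 of the 22 named genes, and the NF-kappa B consensus was present in the 250 bases before the start of 5 of them (Ccl9, Cxcl1, Cxcl2, Cxcl3 and Cxcl10), beside 7.25% of 32851 mouse promoters. A match is a description of letters and does not show binding.

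The CXCR3 ligands Cxcl9 (MIG), Cxcl10 (IP-10) and Cxcl11 (I-TAC) are interferon-inducible genes that form a second cluster on chromosome 5 (GRCm38, chr5:92321347-92365485). Their COM values divided the other way, with the high level in samples 4 to 6. Cxcl10 was at 14.9, 17.6 and 15.3 FPKM in COM-1 to COM-3 and at 544, 481 and 498 FPKM in COM-4 to COM-6. NC ranged from 0.469 to 24.2 FPKM with a median of 14.3, and COM+Met from 191 to 256 FPKM with a median of 226. COM-1 to COM-3 therefore lay inside the NC range, and every COM+Met sample lay between the low and the high COM samples. The log2 fold change was 3.38 ± 1.14 in COM against NC (limma, adjusted p = 0.0236), and the call was lost without COM-4, COM-5, NC-5 or NC-6 (adjusted p 0.0518 to 0.0564). It was 5.84 without COM-1 to COM-3, 0.93 without COM-4 to COM-6 and 2.36, again without a call, without NC-5 and NC-6 (adjusted p = 0.129). COM+Met against COM gave 1.27 ± 0.98 (limma, adjusted p = 0.422), but 3.72 without COM-4 to COM-6 and −1.19 without COM-1 to COM-3. COM+Met and NC did not overlap, with a change of 4.65 ± 0.60 (limma, adjusted p = 1.3e-05), or 3.63 without NC-5 and NC-6.

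Cxcl9 did not exceed 0.0928 FPKM in NC. Its values in COM-1 to COM-6 were 2.51, 0.881, 0.555, 9.50, 12.8 and 32.2 FPKM, and COM+Met ranged from 3.71 to 5.30 FPKM. All COM and all COM+Met samples lay above all NC samples. The changes against NC were 2.52 ± 0.63 in COM and 2.42 ± 0.077 in COM+Met. Only COM and COM+Met brought Cxcl9 to the mean needed for these fits, so only a rise could be called and no p-value is given. The change in COM was 4.002 without COM-1 to COM-3, and without COM-4 to COM-6 the level was too low for the fit. COM+Met against COM was −0.11 ± 0.64, and 1.37 or −1.58 depending on whether COM-4 to COM-6 or COM-1 to COM-3 were left out.

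The values of Cxcl11 in COM-1 to COM-6 were 0, 0.0459, 0, 6.74, 6.74 and 6.19 FPKM. NC ranged from 0 to 0.168 FPKM and COM+Met from 0.641 to 0.802 FPKM. The annotation lists this gene as a polymorphic pseudogene, since some laboratory strains carry a disrupted copy. Its RNA level therefore does not show that these C57BL/6 cells made a working ligand. COM against NC was 1.42 ± 0.58 and missed the threshold (limma, adjusted p = 0.0526), and 2.87 without COM-1 to COM-3. The change in COM+Met against COM was −0.66, or −2.11 and called lower without COM-1 to COM-3. The level was too low for the fit of COM+Met against NC, but all 6 COM+Met samples lay above all 6 NC samples (p = 0.00216 by the two-sided exact permutation test).

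Upstream sequences of Cxcl10 and Cxcl9 are printed for comparison with the CXCR2 ligands, 5′ to 3′ on the minus strand, from RefSeq on GRCm38.p6 at chr5:92348890-92349139 and chr5:92328080-92328329. Capitals mark an interferon response element (GAAANNGAA), the NF-kappa B consensus and AP-1 (TGANTCA).
Cxcl10: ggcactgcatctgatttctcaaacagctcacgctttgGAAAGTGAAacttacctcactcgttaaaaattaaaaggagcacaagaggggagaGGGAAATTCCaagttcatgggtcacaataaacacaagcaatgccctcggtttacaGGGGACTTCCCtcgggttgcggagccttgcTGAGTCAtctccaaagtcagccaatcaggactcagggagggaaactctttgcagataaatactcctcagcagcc
Cxcl9: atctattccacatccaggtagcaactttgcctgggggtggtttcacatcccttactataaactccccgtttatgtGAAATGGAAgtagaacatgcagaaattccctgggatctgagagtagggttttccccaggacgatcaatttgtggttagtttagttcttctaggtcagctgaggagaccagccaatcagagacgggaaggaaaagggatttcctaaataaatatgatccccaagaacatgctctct
In Cxcl10 the interferon response element GAAAGTGAA begins 213 bases before the start. NF-kappa B matches begin 159 and 104 bases before it, the latter with an overlapping match on either strand at 103, and TGAGTCA begins 74 bases before it. In Cxcl9 the single match, GAAATGGAA, begins 175 bases before the start. Among the 15 named genes with a promoter, 3 held an interferon response element (Ccl3, Cxcl9 and Cxcl10) and 2 an AP-1 match (Ccl9 and Cxcl10), beside 7.13% and 6.75% of all promoters.

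**Figure D3:**
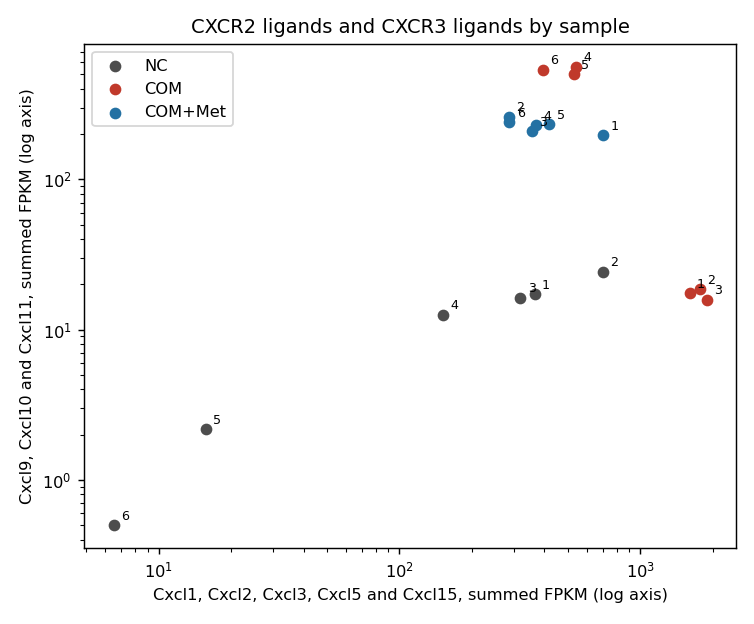
Summed FPKM of the CXCR2 ligands Cxcl1, Cxcl2, Cxcl3, Cxcl5 and Cxcl15 (x axis, log scale) against that of the CXCR3 ligands Cxcl9, Cxcl10 and Cxcl11 (y axis, log scale), with a point and replicate number for each of the 18 samples. COM-1 to COM-3 lie at 1602 to 1887 and 15.8 to 18.5 FPKM and COM-4 to COM-6 at 393 to 542 and 500.1 to 561 FPKM, with no COM sample between them.

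The CCR2 ligands Ccl2 (MCP-1), Ccl7 (MCP-3), Ccl8 (MCP-2) and Ccl12 (MCP-5), the monocyte chemoattractants, lie together on chromosome 11 (GRCm38, chr11:82035571-82116799). In COM, Ccl2, Ccl7 and Ccl12 divided as the CXCR3 ligands did, whereas Ccl8 in COM-6 was below its level in COM-1. Ccl2 was at 8.64, 5.07 and 5.36 FPKM in COM-1 to COM-3, within the NC range of 3.78 to 27.2 FPKM, and at 287, 237 and 166 FPKM in COM-4 to COM-6. In COM+Met it was at 101, 128 and 150 FPKM (lowest, median and highest). The change in COM against NC was 1.63 ± 1.06 and did not pass (limma, adjusted p = 0.208). It was 4.12 without COM-1 to COM-3, −0.85 without COM-4 to COM-6 and 0.98 without NC-5 and NC-6. Between COM and COM+Met it was 1.62 ± 1.00 (limma, adjusted p = 0.311), or 4.10 and −0.86 without COM-4 to COM-6 and without COM-1 to COM-3. COM+Met was higher than NC by 3.25 ± 0.39 with no overlap (limma, adjusted p = 6.09e-06), or by 2.60 without NC-5 and NC-6.

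Ccl7 was at 0.809, 0.0771 and 0.426 FPKM in COM-1 to COM-3, mostly below the NC range of 0.617 to 8.25 FPKM, and at 19.3, 19.7 and 35.8 FPKM in COM-4 to COM-6. COM+Met ranged from 6.25 to 8.02 FPKM, between the low and high COM samples and within the NC range. COM against NC was 0.59 ± 0.90 (limma, adjusted p = 0.591), with 2.66 and −1.48, both called, without COM-1 to COM-3 and without COM-4 to COM-6. Without NC-5 and NC-6 it was 0.048. COM+Met against COM was 0.44, called higher at 2.51 without COM-4 to COM-6 and lower at −1.64 without COM-1 to COM-3. COM+Met against NC was 1.03 ± 0.35 (limma, adjusted p = 0.0170), and fell below 2-fold without NC-5, NC-6, COM+Met-2 or COM+Met-3 (0.77 to 0.998), and to 0.48 without NC-5 and NC-6 together.

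Ccl12 was listed at 0 in all NC samples. Its values in COM-1 to COM-6 were 0, 0, 0.322, 4.61, 5.08 and 6.13 FPKM, and COM+Met ranged from 0.742 to 2.87 FPKM. It was called higher in COM than in NC by limma, with no fold given against a group listed at 0. Only COM brought Ccl12 to the mean needed for the fit, so only a rise could be called. The two-sided exact permutation test, which uses no filter, gave p = 0.0606. The limma call was lost without COM-5, COM-4 or any NC sample, and also without NC-5 and NC-6 together. COM+Met against COM was 0.091, but 1.34 without COM-4 to COM-6 and −1.16 without COM-1 to COM-3. Ccl8 did not reach the level needed for the fit in any comparison, with 0 to 0.0824 FPKM in NC, 0 to 0.786 FPKM in COM and 0.413 to 2.01 FPKM in COM+Met. Ccl8 was above every NC sample in all 6 COM+Met samples. It is named only through its COM+Met mean, so no test of this difference is given.

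**Figure D4:**
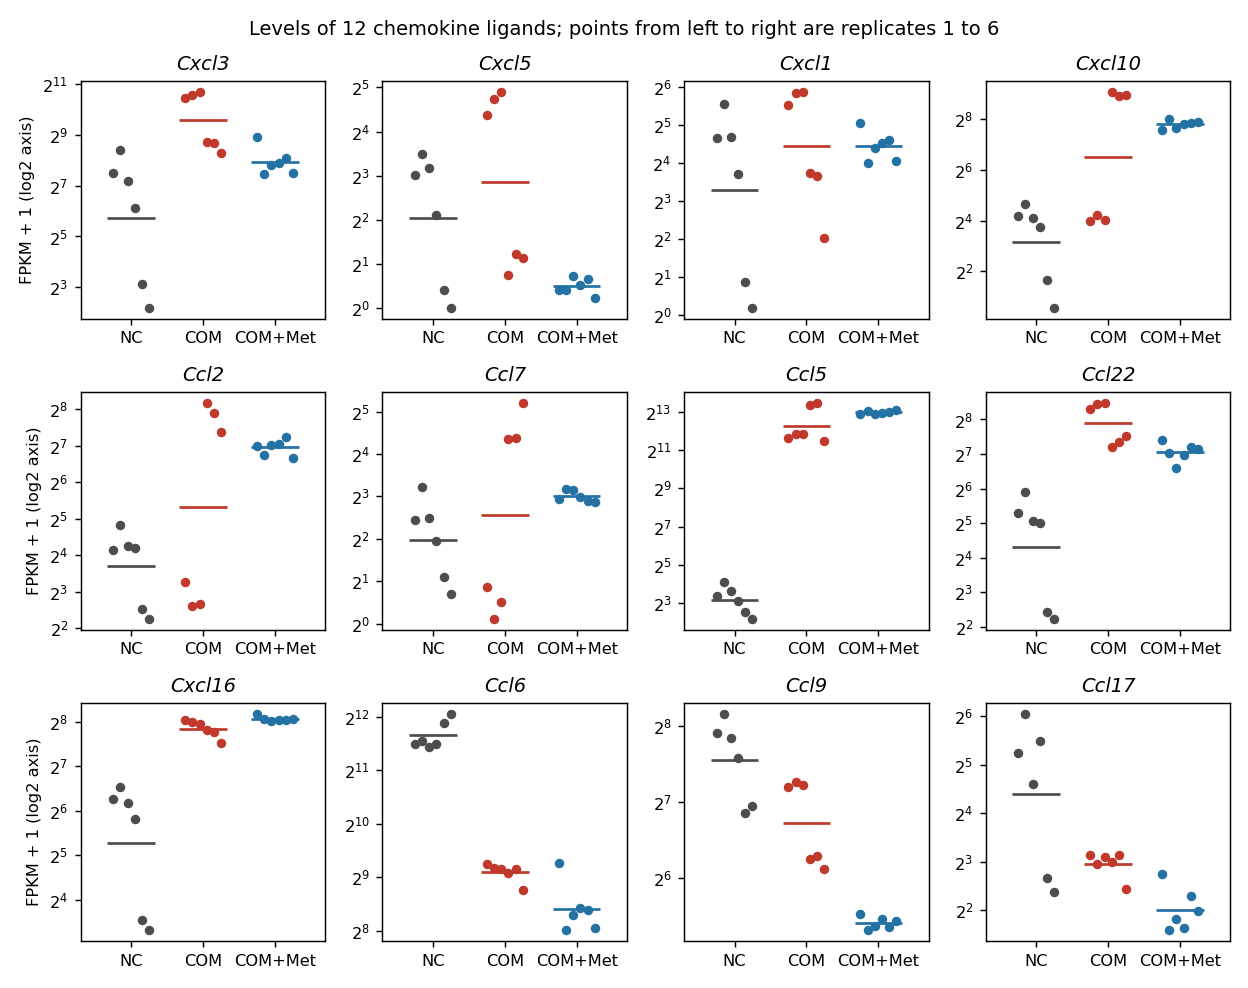
Levels as FPKM + 1 (y axes, log2 scale, a different range in each panel) of 12 ligand genes in NC, COM and COM+Met, with a point for each of 6 samples in order of replicate number and a line at the mean of the log2 values. Cxcl3, Cxcl5, Cxcl1, Ccl22 and Ccl9 are high in COM-1 to COM-3, Cxcl10, Ccl2 and Ccl7 in COM-4 to COM-6, and Ccl5 is at 2849 FPKM or more in all COM samples.

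The genes of the MIP family and RANTES (Ccl3, Ccl4, Ccl5, Ccl6 and Ccl9) lie in a neighbouring cluster (GRCm38, chr11:83525778-83664683) and moved in opposite directions. Ccl5 had the largest rise of all 10900 genes tested in COM against NC and of all 10786 in COM+Met against NC. NC ranged from 3.51 to 16.0 FPKM, the values of COM-1 to COM-6 were 3135, 3701, 3664, 10555, 11290 and 2849 FPKM, and COM+Met ranged from 7581 to 8631 FPKM. COM-6 thus resembled COM-1 to COM-3 in Ccl5, unlike its values of Cxcl10 and Ccl2. The log2 fold change was 9.12 ± 0.42 in COM against NC (limma, adjusted p = 1.4e-08) and 9.82 ± 0.26 in COM+Met against NC (limma, adjusted p = 8.81e-12). Relative to COM, the change in COM+Met was 0.71 ± 0.34, within the spread of COM (limma, adjusted p = 0.188). It was 1.20 without COM-4 to COM-6 and 0.21 without COM-1 to COM-3. Ccl5 is also a product of T cells and NK cells. Of 9 markers of those cells 8 were in the table, none reached 1 FPKM in a group mean, and their summed level was at most 1.72 FPKM in any sample. The part of such cells in the Ccl5 values was not tested.

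Ccl6 went the other way. It was at 2778 to 4241 FPKM in NC, at 434 to 609 FPKM in COM and at 257 to 618 FPKM in COM+Met, with NC-6 and NC-5 the highest. The change was −2.56 ± 0.15 in COM against NC (limma, adjusted p = 5.61e-08) and −3.25 ± 0.19 in COM+Met against NC (limma, adjusted p = 8.54e-09), both without overlap. The difference between COM+Met and COM was −0.69 ± 0.19 (limma, adjusted p = 0.0297), which is under 2-fold, and COM+Met-1 at 618 FPKM exceeded every COM sample.

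Ccl9 (MIP-1 gamma), the neighbour of Ccl6 and also a ligand of CCR1, fell in COM+Met. It was at 114, 209 and 284 FPKM (lowest, median and highest) in NC. In COM it was at 146, 152 and 149 FPKM in samples 1 to 3 and at 74.8, 76.9 and 68.2 FPKM in samples 4 to 6. In COM+Met it was at 38.7 to 44.8 FPKM, below every COM sample. From COM to COM+Met the change was −1.32 ± 0.21 (limma, adjusted p = 0.00192). It was −1.83 without COM-4 to COM-6 and −0.81, under 2-fold, without COM-1 to COM-3. COM against NC was −0.82 ± 0.29 (limma, adjusted p = 0.0283), under 2-fold. It was called at −1.15 without NC-5 and NC-6 and at −1.33 without COM-1 to COM-3, and was −0.32 without COM-4 to COM-6. The change in COM+Met against NC was −2.14 ± 0.20 (limma, adjusted p = 5.55e-07).

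Ccl3 (MIP-1 alpha) and Ccl4 (MIP-1 beta) are adjacent genes whose products attract monocytes and T cells. Ccl3 was at 109, 101 and 107 FPKM in COM-1 to COM-3 and at 482, 476 and 520 FPKM in COM-4 to COM-6, beside 31.8 to 308 FPKM in NC and 369 to 507 FPKM in COM+Met. Ccl4 was at 5.24, 10.7 and 8.48 FPKM in COM-1 to COM-3 and at 92.9, 100.4 and 37.2 FPKM in COM-4 to COM-6, beside 8.57 to 91.6 FPKM in NC and 69.5 to 85.0 FPKM in COM+Met. Both were thus split like Ccl2, with COM+Met near the high COM samples. In COM against NC neither passed, with 1.20 ± 0.65 for Ccl3 (limma, adjusted p = 0.136) and −0.26 ± 0.80 for Ccl4 (limma, adjusted p = 0.796), and Ccl4 changed sign with median-of-ratios size factors (0.0408). Without NC-5 and NC-6 these values were 0.41 and −1.05, without COM-4 to COM-6 0.097 and −1.77, and without COM-1 to COM-3 2.30 and 1.25, of which that of Ccl3 was called. Both were higher in COM+Met than in NC, by 2.10 ± 0.49 and 1.44 ± 0.49 (limma, adjusted p = 0.00172 and 0.0181). Without NC-5 and NC-6 Ccl3 was at 1.30 and the call of Ccl4 was lost (0.64). The change of Ccl4 in COM+Met against COM was 1.69 ± 0.64 without passing (limma, adjusted p = 0.0972), and it passed on removal of COM-4 alone (2.08) and of COM-5 alone (2.10). Without COM-4 to COM-6, Ccl3 and Ccl4 were both called higher in COM+Met than in COM, at 2.0 and 3.20, and without COM-1 to COM-3 they were at −0.21 and 0.19.

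The CCR4 ligands Ccl22 (MDC) and Ccl17 (TARC) lie on either side of Cx3cl1 on chromosome 8 (GRCm38, chr8:94745590-94812036) and parted in COM. Ccl22 was at 3.67 to 59.3 FPKM in NC, at 315, 347 and 356 FPKM in COM-1 to COM-3, at 147, 163 and 183 FPKM in COM-4 to COM-6, and at 94.8 to 169 FPKM in COM+Met. Every COM and COM+Met sample lay above every NC sample. COM against NC was 3.57 ± 0.61 (limma, adjusted p = 0.000401) and COM+Met against NC was 2.75 ± 0.59 (limma, adjusted p = 0.000903), or 2.57 and 1.75 without NC-5 and NC-6. Between COM and COM+Met it was −0.82 ± 0.24 (limma, adjusted p = 0.0411), under 2-fold. It was −1.35 without COM-4 to COM-6 and −0.30 without COM-1 to COM-3.

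The values of Ccl17 in NC-1 to NC-6 were 36.7, 64.7, 23.3, 43.6, 5.31 and 4.20 FPKM, and it was at 4.41 to 7.77 FPKM in COM and at 2.01 to 5.69 FPKM in COM+Met. NC-5 lay within the COM range and NC-6 below it. The change was −1.45 ± 0.56 in COM against NC (limma, adjusted p = 0.0448), while the two-sided exact permutation test gave p = 0.0584. This call was lost when any COM sample or any of NC-1 to NC-4 was left out (adjusted p 0.0589 to 0.0984), or when COM-1 to COM-3 or COM-4 to COM-6 were (0.111 and 0.181), and the change was −2.39 without NC-5 and NC-6. COM+Met against NC was −2.39 ± 0.58 (limma, adjusted p = 0.00229), or −3.33 without NC-5 and NC-6. Relative to COM, the change in COM+Met was −0.94 ± 0.19 (limma, adjusted p = 0.00725), under 2-fold, and just over it without COM-6 or COM+Met-1 (−1.05 and −1.09). Without COM-4 to COM-6 together it was −1.05 and called lower. Of 8 dendritic cell markers, 6 reached 1 FPKM in some group mean, and their sum was 5.29 to 47.2 FPKM in NC, 121 to 394 FPKM in COM and 77.7 to 157 FPKM in COM+Met. In COM and COM+Met most of it was Ccr7 and Fscn1, which mature dendritic cells and some activated macrophages express. Others of the list ran the other way, with Clec9a at means of 3.40, 2.37 and 0.764 FPKM and Batf3 at 1.91, 1.72 and 0.933 FPKM in NC, COM and COM+Met. In COM against NC 3 of 6 tested were called higher and 0 lower (5.99% and 11.7% of all genes). In COM+Met against NC 2 of 4 were called higher and 1 lower (5.66% and 13.6%). The part of dendritic cells in the Ccl22 values was not tested.

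Cxcl16, a membrane-bound ligand of CXCR6 that also takes up oxidised lipid, rose with little spread within COM. It was at 8.96, 63.0 and 91.3 FPKM (lowest, median and highest) in NC, at 181, 234 and 262 FPKM in COM and at 258, 262 and 286 FPKM in COM+Met. The change was 2.57 ± 0.53 in COM against NC (limma, adjusted p = 0.00141) and 2.79 ± 0.53 in COM+Met against NC (limma, adjusted p = 0.000349), without overlap. Without NC-5 and NC-6 it was 1.65 and 1.87. Its gene (GRCm38, chr11:70453983-70459984) overlaps Zmynd15 on the opposite strand by 552 bases, and Zmynd15 had means of 2.52, 11.3 and 8.44 FPKM in NC, COM and COM+Met. Strand use in the counting is not given in the sources used here.

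Cx3cl1 (fractalkine), the ligand of CX3CR1, was at 2.46 to 4.98 FPKM in NC, 2.07 to 4.89 FPKM in COM and 0.976 to 3.59 FPKM in COM+Met, with COM+Met-1 the highest of its group. It was −0.79 ± 0.23 in COM+Met against COM (limma, adjusted p = 0.0391), under 2-fold, or −1.15 and called without COM-4 to COM-6, and 0.06 ± 0.21 in COM against NC (limma, adjusted p = 0.825). The latter was 0.28 without NC-5 and NC-6, 0.42 without COM-4 to COM-6 and −0.30 without COM-1 to COM-3. Ccl25 (TECK), the ligand of CCR9, was at 1.25 to 3.04 FPKM in NC, 2.69 to 5.41 FPKM in COM and 4.93 to 7.12 FPKM in COM+Met. It was 1.07 ± 0.15 higher in COM+Met than in NC (limma, adjusted p = 2.53e-05), a value just under 2-fold without NC-1 or NC-3 (0.997 and 0.98). In COM against NC the change of Ccl25 was 0.68 ± 0.19 (limma, adjusted p = 0.00908), under 2-fold, or 0.38 without COM-4 to COM-6. In COM+Met against COM it was 0.39 ± 0.15 (limma, adjusted p = 0.102), or 0.69 without COM-4 to COM-6 and 0.089 without COM-1 to COM-3. Its gene overlaps Elavl1 on the opposite strand by 204 bases, which had means of 8.04, 6.30 and 6.05 FPKM in the 3 groups.

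Cxcl12 (SDF-1), the CXCR4 ligand that stromal cells of the marrow produce, had values of 3.02, 2.60, 2.25, 2.08, 0.428 and 0.142 FPKM from NC-1 through NC-6. It was at 2.30 and 1.31 FPKM in COM-1 and COM-6 and at 0.0154 to 0.377 FPKM in the other COM samples, and at 0 to 0.318 FPKM in COM+Met. COM against NC was −0.65 ± 0.37 (limma, adjusted p = 0.151), with −1.14 without NC-5 and NC-6 and −1.19 with sample weights, both called lower. Only NC brought Cxcl12 to the mean needed for this fit, so only a fall could be called. The level was too low for the other fits. In COM+Met, 5 of 6 samples lay below every NC sample. Cxcl12 is named only through its NC mean, so no test of this difference is given. The summed level of 8 stromal markers was 21.4 to 76.5 FPKM in NC, 6.06 to 42.4 FPKM in COM and 3.25 to 8.72 FPKM in COM+Met. Col1a1, a collagen gene of that list, was at 4.65 to 19.5, 0.181 to 10.3 and 0 to 1.14 FPKM in the 3 groups. Pdgfrb of the same list ran the other way, at 0.482 to 1.498, 2.25 to 7.04 and 2.26 to 4.11 FPKM. Of 6 stromal markers tested in COM against NC, 1 was called higher and 4 lower, beside 5.99% and 11.7% of all genes. The part of stromal cells in the Cxcl12 values was not tested.

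**Figure D5:**
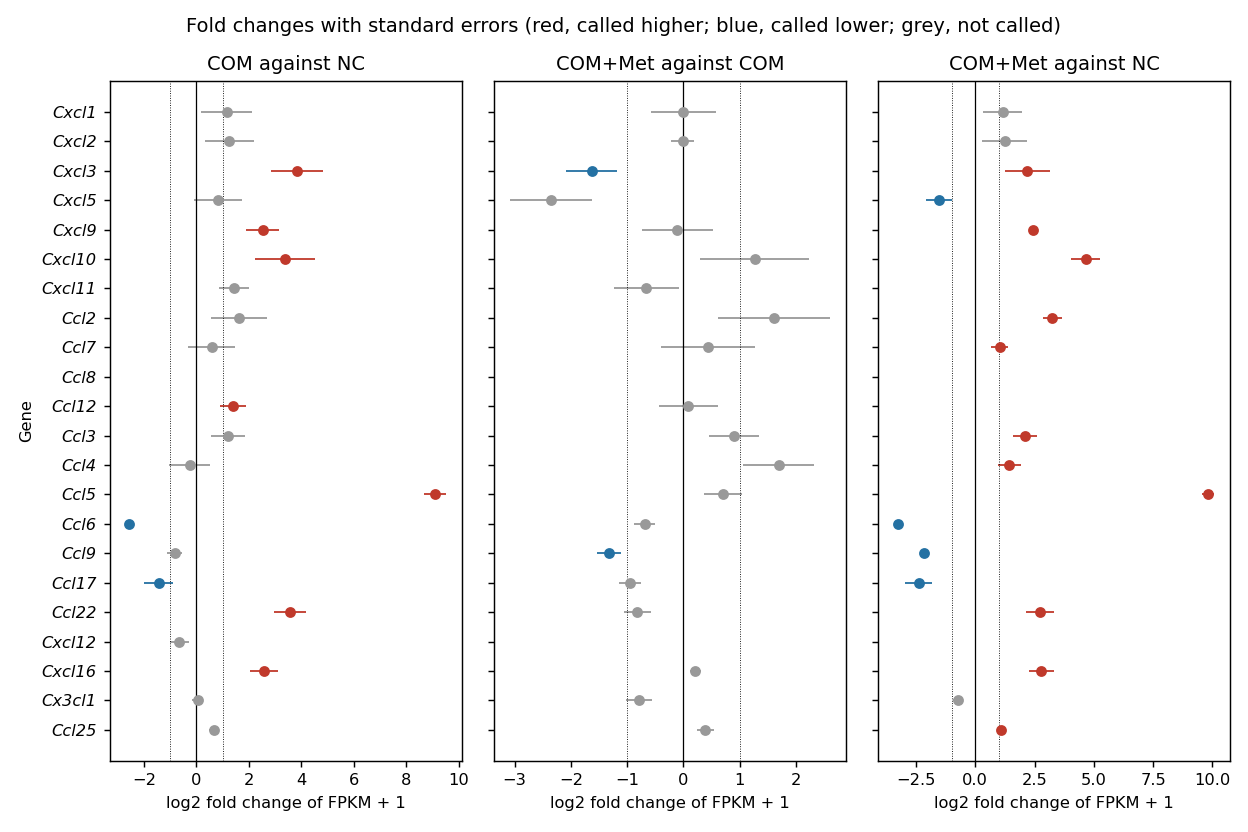
Log2 fold change of FPKM + 1 with its standard error (x axis) for the ligand genes tested (y axis) in the 3 comparisons, with dotted lines at a 2-fold change and colours for genes called higher, called lower or not called. Ccl5 stands at 9.12 in COM against NC and 9.82 in COM+Met against NC, and only Ccl9 and Cxcl3 are called in COM+Met against COM.

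Ligands below 1 FPKM in each group mean were few in kind. Ccl1, a ligand of CCR8, was at 0 to 1.82 FPKM in NC and at most 0.0631 FPKM in the other groups. Cxcl14 was at 0.483 to 1.13 FPKM in NC and 0.0765 to 0.312 FPKM in COM+Met, and Ccl24, an eosinophil chemoattractant, was highest in COM-3 at 1.07 FPKM. Ccl20, Ccl27a, Ccl28, Cxcl13 and Xcl1 did not exceed 0.648 FPKM in any sample. The genes listed at 0 throughout were Ccl11, Ccl19, Ccl21a, Ccl21b, Ccl26, Ccl27b, Cxcl15 and Cxcl17. Of the 50-base stretches of Ccl27b transcripts, 57.1% also occur in other ligand genes, so a 0 there is uncertain. Of the named genes, only Cxcl2 and Cxcl3 shared any such stretch with another ligand (1.84% and 1.75%), and the others shared none.

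Among the chemokine receptors, 7 of 19 reached the level tested in COM against NC, of which 1 was called higher and 4 lower, beside 5.99% and 11.7% of all genes. Ccr7, the receptor for Ccl19 and Ccl21, averaged 133 FPKM in COM and 9.94 FPKM in NC (log2 fold change 3.83, limma, adjusted p = 0.000243). It was at 195, 214 and 199 FPKM in COM-1 to COM-3, at 61.5, 64.6 and 61.2 FPKM in COM-4 to COM-6, at 1.999 and 0.824 FPKM in NC-5 and NC-6 and at 10.8 to 20.3 FPKM in the other NC samples. Ccr2 averaged 0.187 and 8.24 FPKM (−2.79) and Cxcr2 0.361 and 2.26 FPKM (−1.28) in COM and NC. Both are among the 4 called lower and reached the mean needed for the test only through NC, so only a fall could be called. Of 5 receptors tested in COM+Met against COM 1 was called lower (1.61% of all genes), the Ccl5, Ccl6 and Ccl9 receptor Ccr1, at 11.9 against 29.5 FPKM (−1.24, adjusted p = 0.000607). Of 5 atypical receptors only Ccrl2, which binds chemerin, was tested. It rose in COM against NC (2.67, adjusted p = 0.000105) and in COM+Met against COM (1.08, adjusted p = 0.0296).

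Of 16 transcription factors that induce chemokines, 5 were called higher and 1 lower in COM against NC, beside 5.99% and 11.7% of all genes. These shares also stand beside the cytokines, proteases and signalling genes below in that comparison. The interferon-linked factor Irf7 averaged 594 FPKM in COM and 8.52 FPKM in NC (log2 fold change 6.05, limma, adjusted p = 3.62e-08), and Fos, an AP-1 subunit, fell by 1.87. Against COM, COM+Met had 0 of 16 called by limma, beside 0.608% of all genes called higher and 1.61% called lower. Changes under 2-fold are not counted here. Of the 4 inducing cytokines tested, 3 were higher in COM than in NC, with Il1b at 535 against 86.8 FPKM and Il6 at 22.7 against 3.57 FPKM. From COM to COM+Met, Il1b fell by 1.64 on the log2 scale (limma, adjusted p = 5.61e-06) and Tnf rose by 1.33 (limma, adjusted p = 0.0226). Of 7 proteases tested that trim or shed chemokines, 3 were higher and 1 lower in COM than in NC, and Mmp9 and Mmp8 were lower in COM+Met than in COM (−2.06 and −1.29). Of 23 signalling genes tested, 2 were higher in COM than in NC and 6 were lower. In COM+Met against COM 0 of 23 were called by limma, and changes under 2-fold are again not counted. Pf4 and Ppbp, chemokines with other symbols, were called in neither of these comparisons, and Ppbp was lower in COM+Met than in NC (−2.40). Only NC brought Ppbp to the mean needed for that test, so only a fall could be called.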

How the data were processed

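Total RNA of BMDMs was sequenced in 18 samples (NC, COM and COM+Met, 6 of each), with groups and replicate numbers taken from the sample labels. The authors deposited FPKM values per gene and sample in a single table. Bowtie 0.12.2, mm8 and mm9 appear in the submitters' processing notes, and the quantification program, annotation and any filter are not given in the sources at hand. FPKM does not keep the read depth, and steps between low values did not give back whole reads, so no counting interval is given and the precision of low values is unknown.

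Values were transformed to log2(FPKM + 1), so that changes of low genes are understated. Genes that averaged 1 FPKM or more in the 12 samples of a comparison were fitted with limma 3.58.1 (lmFit, eBayes with a trend) in R 4.3.3, without covariates, and p-values were adjusted over all genes tested by Benjamini-Hochberg. For single genes a two-sided exact permutation test over 924 splits was added. Further tools were numpy 2.4.6, pandas 2.3.3 and matplotlib 3.10.9 (Python 3.11.15), and the procedure was tested on simulated data. Named genes are all ligands with a group mean of at least 1 FPKM and, from each pathway list, up to 2 called genes with the greatest rise and 2 with the greatest fall, except that 1 such gene is not reported here. The members and lists were chosen with earlier results of these data known. Marker genes and Zmynd15, Elavl1 and Col1a1 are named for checks. Positions are those of GENCODE M21 (GRCm38), matched by Ensembl identifier for 38 of 38 genes, and promoters those of RefSeq on GRCm38.p6.

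Alternatives were pseudocounts of 0.1 and 5, no filter, a filter of 5 FPKM, TPM, quantile normalisation, size factors by median of ratios, a block for the replicate number, all 18 samples in a shared fit, limma's sample weights, each sample left out in turn, NC-5 and NC-6 left out, and COM-4 to COM-6 left out. Leaving out COM-1 to COM-3 was added after the values had been seen. Leaving out either set of 3 COM samples describes the weight of those samples and is no comparison of groups.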

Additional observations from a re-analysis of the deposited data

Results flagged for a closer look

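In 66 groups of 6 samples (the 22 named ligands in 3 groups), the highest or lowest sample was set apart from its nearest neighbour by Dixon's criterion in 9. Chance flags about 1 in 20 groups. In 6 of the 9 the sample was COM+Met-1, which was the highest of its group in Ccl6 (618 FPKM, next 340 FPKM), Cxcl3 (480 FPKM, next 270.2 FPKM), Cxcl16 (286 FPKM, next 266 FPKM), Cxcl2 (189.9 FPKM, next 125 FPKM), Cx3cl1 (3.59 FPKM, next 1.66 FPKM) and Cxcl12 (0.318 FPKM, next 0.0131 FPKM). Ccl17 was lowest in COM-6 (4.41 FPKM, next 6.71 FPKM). Ccl8 was highest in NC-6 at 0.0824 FPKM with the other NC samples at 0, and Cxcl11 was highest in NC-3 at 0.168 FPKM, next 0.01998 FPKM. The COM groups of Cxcl1, Cxcl3, Cxcl5, Cxcl10, Cxcl11, Ccl2 and Ccl7 were not among the 9, since their samples divide 3 and 3. What sets these samples apart was not tested.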

How the results depend on the processing

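Depth is unknown for these values, and the values of many ligands depend on which COM samples are used. Of 1399 values of single ligands under the alternatives, 1196 kept their direction and side of the threshold, 86 lost a call, 57 gained one and 60 changed direction. Ccl5, Ccl6, Ccl22 and Cxcl16 in COM against NC, and Ccl5, Ccl6, Ccl9, Ccl2, Ccl22, Ccl3, Cxcl10, Cxcl16 and Ccl17 in COM+Met against NC, kept their call under all alternatives. Cxcl9 in COM against NC kept its call in the 23 alternatives that could be fitted, but it passed the filter only through COM, so only a rise could be called. It was too low for the filter of 5 FPKM and for the fit without COM-4 to COM-6. The cause of the changes below was not tested.

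In COM against NC (7 ligands higher, 2 lower), 1 ligand was called lower with a pseudocount of 0.1, no filter, size factors or quantile normalisation, 5 with sample weights, 4 without NC-5 and NC-6, and 1 to 2 with each sample left out in turn. All genes called lower were 563 with a pseudocount of 5 (417 higher), 833 with a filter of 5 FPKM, 834 with size factors, 777 with sample weights, 818 without COM-4 to COM-6 and 2131 without COM-1 to COM-3. Changes of direction were Ccl4 at 0.0408 with size factors, 1.25 without COM-1 to COM-3 and −0.66 to 0.14 with each sample left out, and Cx3cl1 at −0.30 without COM-1 to COM-3 and −0.0274 to 0.16 with each sample left out. Sample weights turned Ccl2 (−1.12), Ccl3 (−0.48) and Ccl7 (−1.77). Leaving out NC-5 and NC-6 turned Cxcl1 (−0.22), Cxcl2 (−0.33) and Cxcl5 (−0.10), leaving out COM-4 to COM-6 turned Ccl2 (−0.85) and Ccl7 (−1.48), and leaving out COM-1 to COM-3 turned Cxcl1 (−0.15) and Cxcl5 (−0.9995).

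In COM+Met against COM (0 higher, 2 lower), 5 ligands were called lower with a pseudocount of 0.1, 1 with no filter, and 1 to 4 with each sample left out, when 0 to 1 were called higher. Sample weights and the removal of COM-4 to COM-6 each gave 8 higher and 7 lower, and the removal of COM-1 to COM-3 gave 1 higher and 5 lower. All genes called higher and lower were 95 and 275 with a pseudocount of 0.1, 29 and 61 with 5, 216 and 503 with sample weights, and 236 and 535 without COM-4 to COM-6. They were 96 higher without COM-1 to COM-3, 104 lower with a filter of 5 FPKM, and 47 to 90 higher and 134 to 241 lower with each sample left out. Cxcl1 was −0.10 with a pseudocount of 5, −0.0380 as TPM, −0.0245 with quantile normalisation, −1.28 with sample weights, −1.30 without COM-4 to COM-6 and −0.48 to 0.29 with each sample left out. Cxcl9 was 0.12 with a pseudocount of 0.1, 1.32 with sample weights, 1.37 without COM-4 to COM-6 and −0.50 to 0.39 with each sample left out. Ccl12 was −0.0800 and Ccl7 −0.0634 with a pseudocount of 5, and Cxcl11 0.66 with sample weights. Leaving out COM-1 to COM-3 turned Ccl12 (−1.16), Ccl2 (−0.86), Ccl3 (−0.21), Ccl7 (−1.64), Cxcl10 (−1.19) and Cxcl2 (0.29). With each sample left out Ccl12 ranged from −0.19 to 0.38, Ccl7 from −0.0556 to 0.96 and Cxcl2 from −0.15 to 0.0687.

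In COM+Met against NC (11 higher, 4 lower), all genes called lower were 679 with a pseudocount of 5 and 913 with a filter of 5 FPKM. Cxcl1 and Cxcl2 were −0.10 and −0.22 with sample weights, and −0.22 and −0.33 without NC-5 and NC-6.

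The replicate numbers did not pair the samples, with 0 of 18 correlations of same-numbered samples over 0.1 (−0.222 to 0.0569). With the replicate block the counts of ligands called were 7 higher and 2 lower, 0 and 2, and 11 and 4 in the 3 comparisons, and in COM against NC Cxcl1 was then called (adjusted p = 0.0247) and Cxcl10 was not (adjusted p = 0.0641).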
